A study of Mus musculus with 9 samples.

Results

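The chemokine genes are the 34 gene names on the array that begin with Ccl, Cxcl, Cx3cl or Xcl followed by a number, out of 27745 gene names, and they were read with 43 of 41174 probes. The rule picks genes by name and uses no measured value, but it was set with earlier results of these data known. Where a gene had more than 1 probe, the probe with the highest mean signal over the 9 arrays stood for it. RNA came from Epcam-bearing cells sorted from C57BL/6 mice, in 3 groups of 3 arrays, and age, sex and any treatment are not given in the sources used here. The kidney group held Epcam+ CD45- Fluorogold- cells, freed with collagenase, dispase and DNAse, and each replicate pooled 4 mice. The MHCIIhi group held small intestinal cells of the gate Epcamhi MHChi CD45- Fluorogold-. The MHCIIlo group held small intestinal cells of the gate Epcamint MHCint CD45- Fluorogold-, which another label calls MHCIIint. Intestinal cells were released with EDTA and each replicate pooled 3 mice. Epcam joins epithelial cells to each other, MHC class II presents peptides to helper T cells, CD45 marks leukocytes, and Fluorogold marked dead cells. Every array thus measured a pool, and the organ cannot be told apart from the way its cells were released.

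Chemokines are small secreted proteins that bind receptors on the surface of leukocytes and direct where those cells move, and they are grouped by the spacing of their first cysteines into the CC, CXC, CX3C and XC families. In the small intestine, Ccl25 from epithelial cells draws lymphocytes and plasma cells that carry Ccr9, Ccl28 draws plasma cells that carry Ccr10, and Ccl20 over lymphoid follicles draws cells that carry Ccr6. In the kidney, tubule cells are a known source of Ccl2 and Cxcl10 during inflammation. What was measured here is transcript signal, not protein.

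Levels are given on the log2 scale relative to each array's own 75th percentile, so that 0 is the 75th percentile of all probes on that array. That percentile stood at a signal between 599 and 769 on the kidney arrays, between 213 and 371 on the MHCIIhi arrays and between 101 and 185 on the MHCIIlo arrays. The lowest level that counted as well above background therefore differed, between -6.11 and -5.80 on kidney arrays, -5.37 and -4.45 on MHCIIhi arrays and -4.35 and -3.43 on MHCIIlo arrays. A probe that an array did not measure has only an upper bound there. Where a group measured a chemokine gene on none of its arrays, the difference is given as a bound or not at all, and where it did so on some arrays, their number is given. MHCIIhi 1 and 2 lay on slide 1, MHCIIhi 3 and all MHCIIlo arrays on slide 2, and the kidney arrays on slide 3. Slide and organ can therefore not be told apart, and MHCIIhi against MHCIIlo was also read within slide 2. All 8 intestinal epithelial markers were measured on every array of both intestinal groups, and all 9 kidney tubule markers on every kidney array.

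The 250 bases before the transcription start are shown for 5 members, which were picked by their calls in these data. Whether promoter sequence bears on those calls was not tested. The windows are from RefSeq, assembly GRCm38.p6, which held 24 of the 34 members. Ccl2, Ccl4, Ccl5, Ccl7, Ccl11, Ccl21c, Ccl24, Cxcl5, Cxcl11 and Cxcl16 were not in that table. Ccl6 and Ccl9 lie next to each other on chromosome 11 and were the pair called higher in MHCIIhi. Cxcl9 and Cxcl10 lie next to each other on chromosome 5 and were called in opposite directions in kidney. Ccl20 of chromosome 1 was called lower in kidney. Sequences run 5′ to 3′ on the strand of the gene, and capitals mark matches to 4 motifs searched on both strands, as listed after the sequences. Ccl6 is chr11:83593088-83593337 on the minus strand, Ccl9 chr11:83578637-83578886 on the minus strand, Ccl20 chr1:83116516-83116765 on the plus strand, Cxcl9 chr5:92328080-92328329 on the minus strand and Cxcl10 chr5:92348890-92349139 on the minus strand.
Ccl6: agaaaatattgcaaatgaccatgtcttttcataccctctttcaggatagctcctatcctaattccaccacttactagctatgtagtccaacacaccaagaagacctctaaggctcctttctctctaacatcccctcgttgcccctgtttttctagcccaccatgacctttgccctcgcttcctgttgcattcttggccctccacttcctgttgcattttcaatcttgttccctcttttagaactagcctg
Ccl9: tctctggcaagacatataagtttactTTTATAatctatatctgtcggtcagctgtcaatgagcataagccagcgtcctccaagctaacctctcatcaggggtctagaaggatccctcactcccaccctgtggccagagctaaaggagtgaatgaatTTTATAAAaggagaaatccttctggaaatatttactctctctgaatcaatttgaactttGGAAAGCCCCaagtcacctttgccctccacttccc
Ccl20: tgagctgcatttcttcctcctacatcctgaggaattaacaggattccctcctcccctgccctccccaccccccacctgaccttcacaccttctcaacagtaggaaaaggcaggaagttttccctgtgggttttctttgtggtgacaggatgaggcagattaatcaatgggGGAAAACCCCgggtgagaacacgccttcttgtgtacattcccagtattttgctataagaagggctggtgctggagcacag
Cxcl9: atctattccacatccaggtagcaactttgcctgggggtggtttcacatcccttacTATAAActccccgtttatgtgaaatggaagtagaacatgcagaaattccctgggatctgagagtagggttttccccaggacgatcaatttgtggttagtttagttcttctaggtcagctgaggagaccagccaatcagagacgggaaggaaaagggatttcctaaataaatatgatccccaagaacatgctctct
Cxcl10: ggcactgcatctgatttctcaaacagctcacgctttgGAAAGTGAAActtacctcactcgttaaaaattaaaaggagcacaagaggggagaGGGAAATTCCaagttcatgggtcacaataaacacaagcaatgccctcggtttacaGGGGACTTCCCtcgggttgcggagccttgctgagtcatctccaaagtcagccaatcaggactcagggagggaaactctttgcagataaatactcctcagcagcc
The motifs were the TATA box (TATAAA), the core of the interferon-stimulated response element (GAAANNGAAA), the gamma-activated sequence (TTCNNNGAA) and the NF-kappaB consensus. The window of Cxcl10 held 1 interferon element, from 213 to 204 bases before the start, and 4 matches to the NF-kappaB consensus, of which 3 overlapped between 104 and 94 bases before the start. The window of Ccl20 held 1 NF-kappaB match, from 80 to 71 bases before the start. The window of Ccl9 held 1 NF-kappaB match, from 35 to 26 bases before the start, and 3 TATA box matches, 2 of which overlapped on opposite strands. The window of Cxcl9 held 1 TATA box match, 195 to 190 bases before the start, and that of Ccl6 held no match. Of the 24 members with a window, 8 held a TATA box, 6 an NF-kappaB match, 3 an interferon element and 2 a gamma-activated sequence. Of all 32817 promoter windows of this length, 7.25% held the NF-kappaB consensus, 2.97% the interferon element, 7.01% the gamma-activated sequence and 12.4% the TATA box. Ccl6 and Ccl9 shared a run of 13 bases, gccctccacttcc, which began 55 bases before the start of Ccl6 and 14 bases before that of Ccl9. The median over all 347 pairs of member windows was a longest shared run of 8 bases, and the longest was 14 bases, between Cxcl1 and Cxcl2. A match is a description of these letters only.

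Of the 34 genes, 19 were well above background on all 3 kidney arrays, 15 on all 3 MHCIIhi arrays and 15 on all 3 MHCIIlo arrays. This was 55.9% of members in kidney, 44.1% in MHCIIhi and 44.1% in MHCIIlo, against 67.3%, 56.7% and 49.9% of all gene names on the same arrays. 12 genes were measured on all 9 arrays, while 23 met the condition for a test, that at least 1 group measured them on each of its 3 arrays. No array measured Ccl1, Ccl11, Ccl12, Ccl22, Cxcl5, Cxcl13 or Cxcl14. Ccl8 was measured on 1 array of each group, Cxcl2 on 2 kidney arrays, Cxcl15 on 1 kidney array and Xcl1 on 1 MHCIIhi and 1 MHCIIlo array, so these 4 were not tested either.

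**Figure D1:**
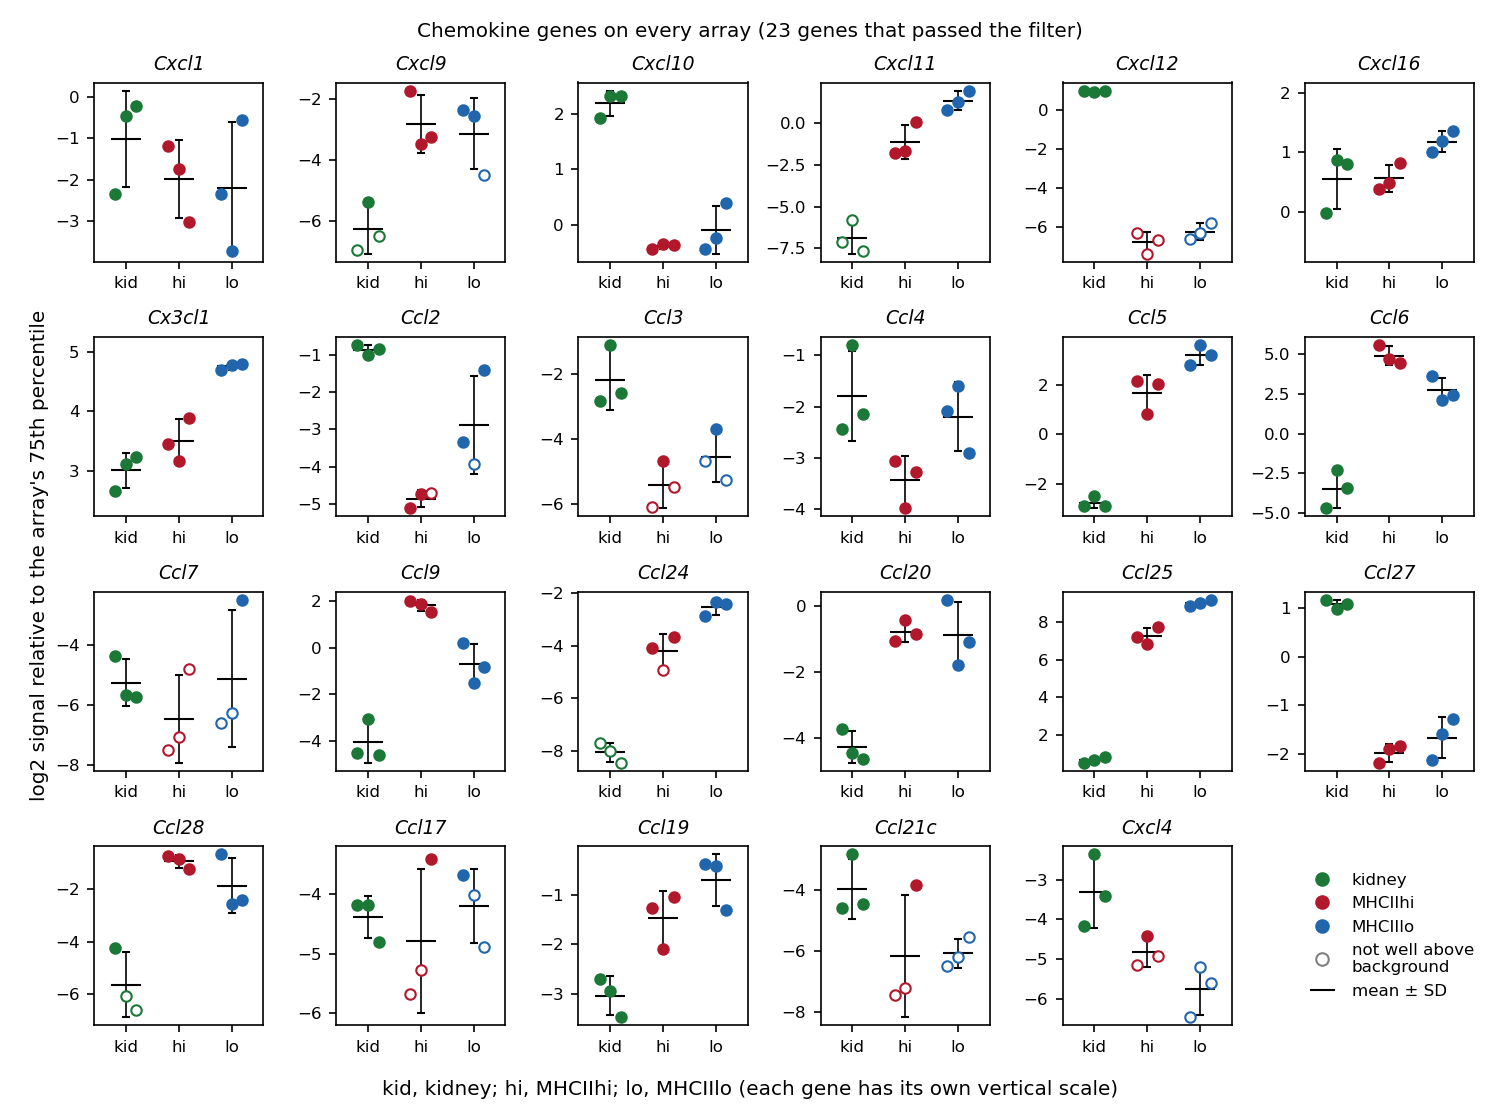
Log2 signal relative to the array's 75th percentile (vertical axis, each gene on its own scale) of the 23 tested chemokine genes on the 3 kidney, 3 MHCIIhi and 3 MHCIIlo arrays. Points are arrays, open where the probe was not well above background, and bars are mean ± SD; Ccl25 lies between 0.53 and 0.82 on kidney arrays and between 6.83 and 9.17 on intestinal arrays.

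The intestinal groups differed in 8 of the 23 genes. Ccl6 and Ccl9, ligands of Ccr1, were higher in MHCIIhi. Ccl25, Ccl5, Ccl2, Ccl24, Cx3cl1 and Cxcl11 were lower in MHCIIhi than in MHCIIlo. A difference counted as called where limma's p, adjusted by Benjamini-Hochberg over all 19474 genes tested, was below 0.05 and the groups differed by 1 or more on the log2 scale in either direction. By this rule 15.1% of all genes were called higher and 16.1% lower in MHCIIhi, against 8.70% (2 of 23) and 26.1% (6 of 23) of the chemokine genes. The median log2 difference was -0.58 over the chemokine genes and -0.23 over all genes. In pools of cells, fewer cells of a type and less RNA per cell cannot be told apart.

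**Figure D2:**
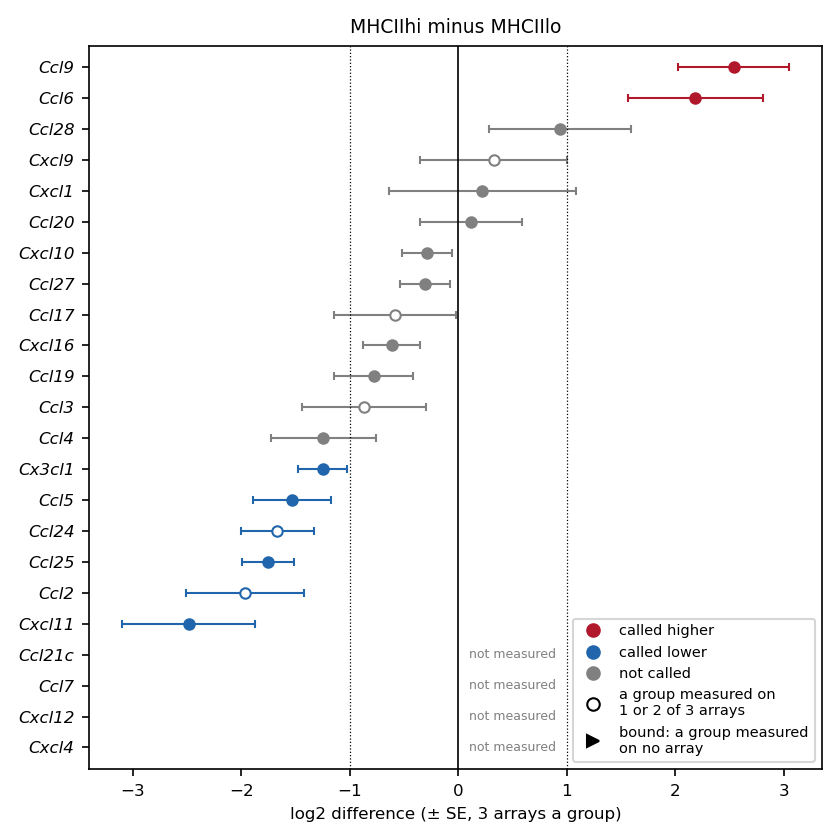
Log2 difference, MHCIIhi minus MHCIIlo, with its SE (horizontal axis, 3 arrays a group) for the 23 tested chemokine genes. Dotted lines stand at -1 and 1, open points mark genes that a group measured on 1 or 2 arrays, and genes that a group measured on no array have no point; Ccl9 at 2.54 and Ccl6 at 2.19 are called higher and 6 genes are called lower, down to Cxcl11 at -2.48.

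Within slide 2, where MHCIIhi 3 met all 3 MHCIIlo arrays, all 8 differences kept their sign, and only that of Ccl25 passed the call. The MHCIIhi side is then 1 array, which is assumed to vary like the other arrays of the fit. Its value there was -1.29 (adjusted p = 0.0233). The others were 2.27 for Ccl9, 1.74 for Ccl6, -1.101 for Ccl24, -1.17 for Ccl5, -0.87 for Cx3cl1 and -1.29 for Cxcl11, each from the fit with slide as a block. MHCIIhi 3 did not measure Ccl2, so only the sign of its difference is given. The numbers called were then 0 higher and 1 lower, while the same fit called 1377 genes higher and 304 lower over all 19474.

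The kidney cells differed from both intestinal groups in more of these genes. Cxcl12, Ccl2, Ccl3, Ccl27, Cxcl10 and Cxcl4 were higher in kidney than in either intestinal group. Ccl25, Ccl6, Ccl9, Cxcl11, Ccl5, Ccl24, Ccl28, Ccl20, Cxcl9 and Ccl19 were lower in kidney than in either. Ccl4 was called higher against MHCIIhi alone and Cx3cl1 lower against MHCIIlo alone. The kidney arrays are shared by both comparisons, which are therefore not independent. Against MHCIIhi, 7 of 23 genes were called higher and 10 lower, or 30.4% and 43.5%, against 26.2% and 22.8% of all genes tested. Against MHCIIlo, 6 were called higher and 11 lower, or 26.1% and 47.8%, against 30.6% and 27.6% of all genes. The median log2 difference of the chemokine genes was -0.01 against MHCIIhi and -0.62 against MHCIIlo, where that of all genes was -0.01 and 0.07. Normexp background correction with an offset of 50 was also run. The split was then 4 higher and 10 lower against MHCIIhi, where 14.7% and 21.4% of all genes were called. Against MHCIIlo it was 3 higher and 14 lower, where 15.4% and 39.3% of all genes were called. Under normexp the median of all genes fell to -0.33 against MHCIIhi and to -0.57 against MHCIIlo. Normexp thus moved the median difference towards lower kidney values. The part of this shift in the normexp calls and turned signs was not tested.

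**Figure D3:**
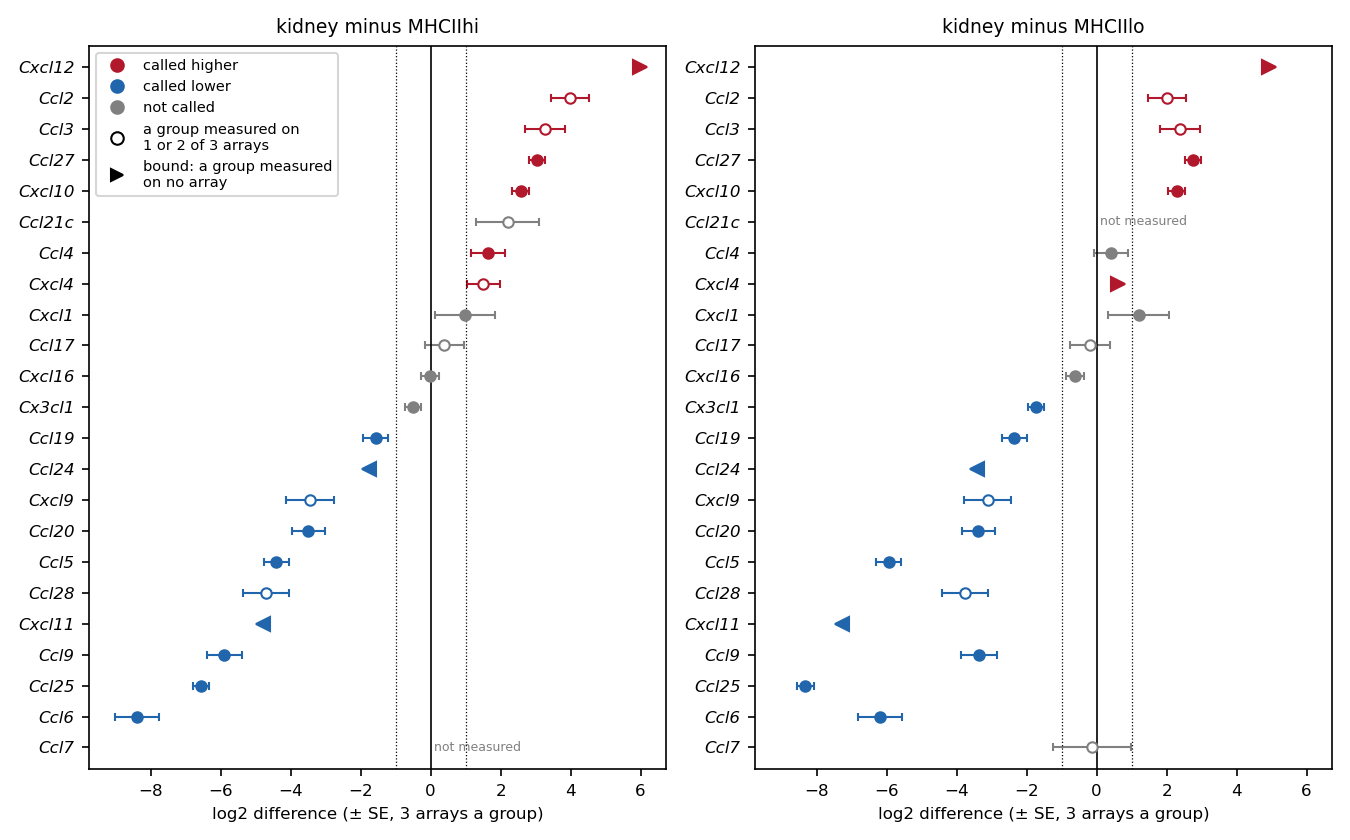
Log2 difference with its SE (horizontal axis, 3 arrays a group) for kidney minus MHCIIhi (left) and kidney minus MHCIIlo (right), genes in the same order. Dotted lines stand at -1 and 1, open points mark genes that a group measured on 1 or 2 arrays, and triangles mark bounds where a group measured the gene on no array; against MHCIIhi the bound of Cxcl12 stands at 5.98 and the point of Ccl6 at -8.39.

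Among the mucosal chemokines, which act through Ccr6, Ccr9 and Ccr10, all 4 were measured and tested. Ccl25 had levels of 0.53, 0.69 and 0.82 in kidney, 7.20, 6.83 and 7.71 in MHCIIhi and 8.84, 8.98 and 9.17 in MHCIIlo. The 3 groups did not overlap, and the kidney arrays lay lowest. Ccl25 was 95.0-fold lower in kidney than in MHCIIhi (log2 difference -6.57, SE 0.24, adjusted p = 8.52e-08) and 320-fold lower than in MHCIIlo (log2 difference -8.32, SE 0.24, adjusted p = 2.31e-08). It was 3.37-fold lower in MHCIIhi than in MHCIIlo (log2 difference -1.75, SE 0.24, adjusted p = 0.000994). Its second probe differed by -6.14, -7.43 and -1.28 in the same comparisons. The call held under every alternative that was run.

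Ccl20, the ligand of Ccr6, had levels of -3.74, -4.46 and -4.63 in kidney, -1.06, -0.42 and -0.85 in MHCIIhi and 0.19, -1.78 and -1.07 in MHCIIlo. Every kidney array lay below every intestinal array, while the intestinal groups overlapped. It was 11.3-fold lower in kidney than in MHCIIhi (adjusted p = 0.000191) (log2 difference -3.50), and its log2 difference from MHCIIlo was -3.39 (adjusted p = 0.000187). The log2 difference of 0.12 between MHCIIhi and MHCIIlo was within the spread of the arrays (adjusted p = 0.850), and its sign turned under normexp.

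Ccl28, a ligand of Ccr10 and Ccr3, was measured on every intestinal array and on 1 of 3 kidney arrays. Its levels were -4.23, -6.08 and -6.60 in kidney, -0.74, -0.85 and -1.23 in MHCIIhi and -0.67, -2.56 and -2.41 in MHCIIlo. All kidney values were the lowest of the 9, and MHCIIlo values lay on both sides of the MHCIIhi values. The difference was -4.70 against MHCIIhi (SE 0.66, adjusted p = 0.000243) and -3.76 against MHCIIlo (SE 0.66, adjusted p = 0.000757). Between MHCIIhi and MHCIIlo it was 0.94 (adjusted p = 0.255).

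Ccl27, which RefSeq names Ccl27a and which is known as a skin chemokine that binds Ccr10, went the other way. Its levels were 1.16, 0.98 and 1.08 in kidney, -2.18, -1.90 and -1.84 in MHCIIhi and -2.12, -1.60 and -1.28 in MHCIIlo. Each kidney array stood above each intestinal array. It was 8.26-fold higher in kidney than in MHCIIhi (log2 difference 3.05, SE 0.23, adjusted p = 5.07e-06) and 6.68-fold higher than in MHCIIlo (log2 difference 2.74, SE 0.23, adjusted p = 7.73e-06). The intestinal groups overlapped (-0.31, adjusted p = 0.283).

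The inflammatory CC chemokines (Ccl2 to Ccl9, Ccl11, Ccl12 and Ccl24) draw monocytes, eosinophils, dendritic cells and T cells, and 8 of the 11 on the array were tested. In MHCIIhi against MHCIIlo 2 were called higher and 3 lower. In kidney, 3 were called higher and 4 lower against MHCIIhi, and 2 higher and 4 lower against MHCIIlo. The shares of all genes called higher and lower were 15.1% and 16.1% in MHCIIhi against MHCIIlo, 26.2% and 22.8% in kidney against MHCIIhi, and 30.6% and 27.6% in kidney against MHCIIlo.

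Ccl6, a rodent chemokine that acts through Ccr1, had levels of -4.71, -2.29 and -3.42 in kidney, 5.58, 4.69 and 4.47 in MHCIIhi and 3.63, 2.11 and 2.43 in MHCIIlo. All MHCIIhi arrays lay above all MHCIIlo arrays, and all kidney arrays lay below both. It was 4.55-fold higher in MHCIIhi than in MHCIIlo (log2 difference 2.19, SE 0.63, adjusted p = 0.0200). Without MHCIIhi 1 that difference was 1.85 (adjusted p = 0.0701), without MHCIIlo 2 it was 1.88 (adjusted p = 0.0686) and without MHCIIlo 3 it was 2.04 (adjusted p = 0.0622), so each of these 3 arrays decided the call. Ccl6 was 335-fold lower in kidney than in MHCIIhi (log2 difference -8.39, SE 0.63, adjusted p = 4.99e-06) and 73.5-fold lower than in MHCIIlo (log2 difference -6.20, SE 0.63, adjusted p = 2.52e-05).

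Ccl9, a related rodent chemokine that acts through Ccr1, had levels of -4.53, -3.06 and -4.63 in kidney, 2.03, 1.90 and 1.55 in MHCIIhi and 0.19, -1.52 and -0.81 in MHCIIlo. The groups did not overlap and stood in the same order as for Ccl6. It was 5.81-fold higher in MHCIIhi than in MHCIIlo (log2 difference 2.54, SE 0.51, adjusted p = 0.00510). It was 59.6-fold lower in kidney than in MHCIIhi (adjusted p = 1.17e-05) and 10.3-fold lower than in MHCIIlo (adjusted p = 0.000313). The probes of Ccl9 and Ccl6 lie 13.7 kb apart on chromosome 11 (mm8, as the array's annotation places them, Ccl9 at 83390916 to 83390975 and Ccl6 at 83404690 to 83404749).

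Ccl5, which draws T cells and eosinophils and lies 48.9 kb from Ccl9, moved the other way between the intestinal groups. Its levels were -2.87, -2.50 and -2.88 in kidney, 2.15, 0.81 and 2.03 in MHCIIhi and 2.81, 3.59 and 3.19 in MHCIIlo. The 3 groups did not overlap. It was 2.89-fold lower in MHCIIhi than in MHCIIlo (log2 difference -1.53, SE 0.36, adjusted p = 0.00989). It was 21.3-fold lower in kidney than in MHCIIhi (adjusted p = 8.92e-06) and 61.6-fold lower than in MHCIIlo (adjusted p = 1.26e-06). Its second probe gave -1.49 between the intestinal groups, and -4.82 and -6.31 for kidney against MHCIIhi and MHCIIlo.

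Ccl2, the main ligand of the monocyte receptor Ccr2, had levels of -0.75, -1.01 and -0.86 in kidney, -5.11, -4.74 and -4.72 in MHCIIhi and -3.33, -3.93 and -1.41 in MHCIIlo. The kidney arrays measured it each time, and 2 of 3 arrays did in each intestinal group. The groups did not overlap, and MHCIIlo 3 stood nearer to kidney than to the other MHCIIlo arrays. Ccl2 was 15.8-fold higher in kidney than in MHCIIhi (log2 difference 3.98, SE 0.54, adjusted p = 0.000201) and 4.05-fold higher than in MHCIIlo (log2 difference 2.02, SE 0.54, adjusted p = 0.00816). With normexp these were 1.51 against MHCIIhi and 0.41 against MHCIIlo (adjusted p = 0.132), and the second missed the call. Between the intestinal groups Ccl2 was 3.90-fold lower in MHCIIhi (log2 difference -1.96, adjusted p = 0.0173), which became -1.84 without MHCIIhi 1 (adjusted p = 0.0569) and -1.23 without MHCIIlo 3 (adjusted p = 0.00999).

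Ccl7, a neighbour of Ccl2 that also binds Ccr2, was measured on all 3 kidney arrays, on no MHCIIhi array and on MHCIIlo 3 alone. Its levels were -4.35, -5.67 and -5.75 in kidney and -2.48 on MHCIIlo 3. No difference passed the call, and none can be sized against MHCIIhi. Between kidney and MHCIIlo it was -0.14 (adjusted p = 0.914), whose sign turned under 6 alternatives, among them median scaling (0.054) and leaving out MHCIIlo 3. Without MHCIIlo 3 no MHCIIlo array measured Ccl7, so its difference is not sized. With normexp the difference between kidney and MHCIIlo was -1.63 (adjusted p = 0.000209) and passed the call.

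Ccl3 and Ccl4, which draw monocytes and T cells and whose probes lie 16.6 kb apart, had their highest level on kidney 2. Ccl3 had levels of -2.82, -1.10 and -2.57 in kidney, -6.11, -4.67 and -5.48 in MHCIIhi and -4.68, -3.70 and -5.27 in MHCIIlo, and 1 array measured it in each intestinal group. The kidney arrays lay above all others, and the difference was 3.26 against MHCIIhi (SE 0.57, adjusted p = 0.000963) and 2.39 against MHCIIlo (SE 0.57, adjusted p = 0.00451). With unmeasured arrays set at the lowest level they could measure, Ccl3 was at least 6.35-fold higher in kidney than in MHCIIhi and at least 3.17-fold higher than in MHCIIlo. With normexp these were 0.63 (adjusted p = 0.0800) and -0.32 (adjusted p = 0.352), so the direction against MHCIIlo turned. Ccl4 had levels of -2.43, -0.80 and -2.14 in kidney, -3.05, -3.98 and -3.28 in MHCIIhi and -2.08, -1.59 and -2.91 in MHCIIlo. MHCIIhi lay below both other groups, which overlapped. The difference between kidney and MHCIIhi was 1.65 (adjusted p = 0.0155). It missed the call without MHCIIhi 2 (1.38, adjusted p = 0.0539), with slide as a random block (1.63, adjusted p = 0.0543) and with normexp (0.56, adjusted p = 0.112). Between kidney and MHCIIlo it was 0.40 (adjusted p = 0.473, sign turned with normexp), and between MHCIIhi and MHCIIlo -1.24 (adjusted p = 0.0594). The last passed the call under 6 alternatives, with adjusted p of 0.0322 without kidney 2, 0.0345 from these 2 groups alone, 0.0409 in the authors' table, 0.0416 among genes measured on all 9 arrays, 0.0419 without MHCIIlo 3 (-1.60) and 0.0496 with a trend and robust prior.

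Ccl24, an eosinophil chemokine that binds Ccr3, was measured on no kidney array, on 2 of 3 MHCIIhi arrays and on all MHCIIlo arrays. Its levels were -4.09, -4.92 and -3.66 in MHCIIhi and -2.89, -2.35 and -2.43 in MHCIIlo, and the arrays did not overlap. It was at least 3.38-fold lower in kidney than in MHCIIhi (adjusted p = 1.45e-05) and at least 10.7-fold lower than in MHCIIlo (adjusted p = 1.38e-06). Such a bound sets the lowest level that an array could measure in place of an unmeasured value. In MHCIIhi it was 3.17-fold lower than in MHCIIlo (log2 difference -1.67, SE 0.34, adjusted p = 0.00554), which became -0.98 with normexp (adjusted p = 0.00405) and so missed the size needed for a call. A second probe of Ccl24 was measured on 2 MHCIIhi arrays, 1 MHCIIlo array and no kidney array. It differed by -0.92 between MHCIIhi and MHCIIlo, a value that rests partly on unmeasured levels.

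The ligands of Cxcr3, the receptor of effector T cells and natural killer cells, are known as genes that interferon gamma induces. Cxcl10 had levels of 1.93, 2.31 and 2.33 in kidney, -0.43, -0.34 and -0.37 in MHCIIhi and -0.43, -0.23 and 0.39 in MHCIIlo. Again kidney values were the highest, and the intestinal groups overlapped. It was 5.94-fold higher in kidney than in MHCIIhi (log2 difference 2.57, SE 0.23, adjusted p = 1.65e-05) and 4.87-fold higher than in MHCIIlo (log2 difference 2.28, SE 0.23, adjusted p = 2.76e-05).

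Cxcl9 and Cxcl11, on both sides of Cxcl10 and 23.5 and 14.3 kb from it, were lower in kidney. Cxcl11 was measured on no kidney array, and its levels were -1.76, -1.67 and 0.08 in MHCIIhi and 0.81, 1.31 and 1.97 in MHCIIlo. It was at least 27.6-fold lower in kidney than in MHCIIhi (adjusted p = 4.39e-05) and at least 154-fold lower than in MHCIIlo (adjusted p = 3.93e-06). The intestinal arrays did not overlap, and Cxcl11 was 5.59-fold lower in MHCIIhi (log2 difference -2.48, SE 0.61, adjusted p = 0.0114), with MHCIIhi 3 nearest to MHCIIlo. Cxcl9 had levels of -6.92, -5.35 and -6.46 in kidney, where 1 of 3 arrays measured it, -1.72, -3.46 and -3.23 in MHCIIhi and -2.36, -2.56 and -4.47 in MHCIIlo, where 2 of 3 did. The kidney arrays lay below all others. The difference was -3.44 against MHCIIhi (SE 0.68, adjusted p = 0.00190) and -3.12 against MHCIIlo (SE 0.68, adjusted p = 0.00272). The intestinal groups overlapped (0.33, adjusted p = 0.704), and the sign turned with normexp.

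Cxcl12, the ligand of Cxcr4, was measured on every kidney array and on no intestinal array. Its kidney levels were 0.99, 0.96 and 1.02, an SD of 0.03. It was at least 62.9-fold higher in kidney than in MHCIIhi (adjusted p = 1.13e-07) and at least 30.2-fold higher than in MHCIIlo (adjusted p = 1.53e-07). Its second probe was likewise measured on every kidney array and on no intestinal array.

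Cx3cl1 and Cxcl16 are made as membrane proteins with a chemokine domain and are released by shedding. Cx3cl1 had levels of 2.67, 3.13 and 3.24 in kidney, 3.46, 3.17 and 3.89 in MHCIIhi and 4.69, 4.78 and 4.80 in MHCIIlo. The MHCIIlo arrays lay above all others, while kidney and MHCIIhi overlapped. It was 2.38-fold lower in MHCIIhi than in MHCIIlo (log2 difference -1.25, SE 0.23, adjusted p = 0.00359), which became -0.84 with quantile normalization (adjusted p = 0.0209) and -0.92 with normexp (adjusted p = 0.00409). In kidney it was 3.35-fold lower than in MHCIIlo (log2 difference -1.74, adjusted p = 0.000130) and differed by -0.49 from MHCIIhi (adjusted p = 0.0879).

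Cxcl16, the ligand of Cxcr6, had levels of -0.01, 0.88 and 0.81 in kidney, 0.39, 0.49 and 0.82 in MHCIIhi and 1.01, 1.18 and 1.35 in MHCIIlo. The MHCIIlo arrays lay above all others, but no difference passed the call. It was -0.61 for MHCIIhi against MHCIIlo (adjusted p = 0.0773), -0.62 for kidney against MHCIIlo (adjusted p = 0.0560) and -0.01 for kidney against MHCIIhi (adjusted p = 0.975), whose sign turned with quantile normalization, median scaling and normexp. The second probe gave 0.06 for MHCIIhi against MHCIIlo, so the probes of Cxcl16 disagreed there.

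Cxcl4, platelet factor 4 and Pf4 in RefSeq, had levels of -4.17, -2.36 and -3.42 in kidney, where every array measured it. It was measured on 1 of 3 MHCIIhi arrays, with levels of -5.15, -4.42 and -4.91, and on no MHCIIlo array. The kidney arrays lay above the MHCIIhi arrays, and the difference was 1.51 (SE 0.48, adjusted p = 0.0211). It was 1.35 without MHCIIhi 1 (adjusted p = 0.0674), 1.47 without MHCIIhi 3 (adjusted p = 0.0501) and 1.03 without kidney 2 (adjusted p = 0.0681), and each of these missed the call. Against MHCIIlo Cxcl4 was at least 1.52-fold higher in kidney (adjusted p = 0.00149). With normexp both directions turned, to -0.17 against MHCIIhi (adjusted p = 0.566). Against MHCIIlo (adjusted p = 0.00670) the turned difference is not sized, since no MHCIIlo array measured Cxcl4.

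The ligands of Cxcr2 draw neutrophils, and 1 of the 4 on the array was tested. Cxcl1 had levels of -2.34, -0.46 and -0.22 in kidney, -1.19, -1.74 and -3.02 in MHCIIhi and -2.34, -3.73 and -0.55 in MHCIIlo. All groups overlapped. The difference was 0.98 for kidney against MHCIIhi (adjusted p = 0.347), 1.20 for kidney against MHCIIlo (adjusted p = 0.235) and 0.22 for MHCIIhi against MHCIIlo (adjusted p = 0.842, sign turned with normexp). Without MHCIIlo 3, the highest MHCIIlo array here, kidney against MHCIIlo was 2.03 (adjusted p = 0.0485) and passed the call.

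Of the 6 ligands of Ccr4, Ccr7, Ccr8 and Xcr1, which guide T cells and dendritic cells into and around lymphoid tissue, 3 were tested. Ccl19, a ligand of Ccr7, had levels of -2.71, -2.94 and -3.48 in kidney, -1.26, -2.10 and -1.04 in MHCIIhi and -0.37, -0.41 and -1.29 in MHCIIlo. The kidney arrays lay below all others. The difference was -1.57 against MHCIIhi (SE 0.36, adjusted p = 0.00449) and -2.35 against MHCIIlo (SE 0.36, adjusted p = 0.000354), and -0.78 between MHCIIhi and MHCIIlo (adjusted p = 0.101). Without MHCIIlo 3 the last was -1.08 (adjusted p = 0.0484) and passed the call. A second probe was measured on 1 kidney array alone, and with the mean of both probes the differences were -0.19 (adjusted p = 0.625) and -0.98 (adjusted p = 0.0218), neither of which was called.

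Ccl21c, the other Ccr7 ligand, was measured on all kidney arrays (-4.59, -2.83 and -4.47), on MHCIIhi 3 alone (-3.84) and on no MHCIIlo array. Near-identical copies of this gene exist in the mouse, so its signal may belong to more than 1 of them. The difference between kidney and MHCIIhi was 2.20 (adjusted p = 0.0586), or at least 1.77-fold with unmeasured arrays at the lowest level they could measure, and its sign turned with normexp. It passed the call with median scaling (2.39, adjusted p = 0.0435) and with a trend and robust prior (adjusted p = 0.0456). It also did so without MHCIIhi 3 (adjusted p = 0.000790), when no MHCIIhi array measured the gene, so that difference is not sized. No difference from MHCIIlo is given, and the test there missed the threshold (adjusted p = 0.0604). Ccl17, a ligand of Ccr4, was measured on all kidney arrays (-4.19, -4.19 and -4.80), on MHCIIhi 3 (-3.41) and on MHCIIlo 1 (-3.69). No difference was called. Leaving out MHCIIhi 3 left no MHCIIhi array that measured Ccl17. MHCIIhi against MHCIIlo (adjusted p = 0.0203) and kidney against MHCIIhi (adjusted p = 0.0343) then passed the call. These tests rest on unmeasured levels, so no size is given. With normexp kidney against MHCIIlo was -1.51 (adjusted p = 8.57e-05) and also passed the call.

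For this list and those that follow, the shares of all genes called are those given above, and the median over all genes was -0.23 in MHCIIhi against MHCIIlo, -0.01 in kidney against MHCIIhi and 0.07 in kidney against MHCIIlo. Of 19 chemokine receptors, 6 were tested, with medians of -1.22, -0.33 and -1.31 in the same comparisons. In MHCIIhi 4 were called lower than in MHCIIlo and 0 higher. The lower ones were Ccr3 (-1.53, adjusted p = 0.00735), Ccr9 (-1.28, adjusted p = 0.0186), Cxcr6 (-1.28, adjusted p = 0.0235) and Ccr6 (-1.16, adjusted p = 0.0153). Only 1 MHCIIhi array measured Ccr3, so its value rests partly on unmeasured levels. In kidney 1 was higher and 1 lower than in MHCIIhi, and 1 higher and 5 lower than in MHCIIlo. Cxcr4, the receptor of Cxcl12, was measured on all kidney arrays, on no MHCIIhi array and on 1 MHCIIlo array. It was called higher in kidney than in MHCIIhi (adjusted p = 1.73e-05) and than in MHCIIlo (adjusted p = 0.000119). Ccr9, the receptor of Ccl25, was lower in kidney, with differences of -1.47 from MHCIIhi (adjusted p = 0.00614) and -2.76 from MHCIIlo (adjusted p = 0.0001265). Of 5 atypical receptors, which bind chemokines without driving migration, 4 were tested. Ackr3, which takes up Cxcl12, and Ccrl2 were called higher in kidney. Ackr3 differed by 5.52 from MHCIIhi (adjusted p = 0.000181) and was also called higher than in MHCIIlo (adjusted p = 2.23e-05), where 1 of 3 arrays measured it and the difference is not sized. Ccrl2 differed by 2.002 (adjusted p = 0.000135) and 2.35 (adjusted p = 3.86e-05). None of the 4 was called between the intestinal groups.

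Of 10 enzymes that trim or shed chemokines, 9 were tested, of which 1 was called higher and 4 lower in MHCIIhi than in MHCIIlo. Mmp7, a matrix protease, was the higher one (2.80, adjusted p = 0.00605), and the lower ones included Mme (-2.15, adjusted p = 0.00522), Dpp4 (-1.65, adjusted p = 0.00309) and Anpep (-1.59, adjusted p = 0.0189), which are peptidases of the cell surface. In kidney 1 was higher and 5 lower than in MHCIIhi, and 1 higher and 6 lower than in MHCIIlo. Dpp4, which removes the first residues of several chemokines, was lower in kidney, with differences of -3.23 from MHCIIhi (adjusted p = 1.56e-05) and -4.89 from MHCIIlo (adjusted p = 1.09e-06).

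Of 15 NF-kappaB pathway genes, 14 were tested. In MHCIIhi 0 were called higher and 3 lower than in MHCIIlo, with a median of -0.40. In kidney 2 were higher and 6 lower than in MHCIIhi (median -0.89), and 1 higher and 7 lower than in MHCIIlo (median -1.32). Bcl3, a nuclear partner of NF-kappaB, differed by -3.30 from MHCIIhi and -3.71 from MHCIIlo (adjusted p = 4.96e-07 and 2.22e-07), and Relb, a subunit, by -3.15 and -4.11 (adjusted p = 4.75e-06 and 8.24e-07). All 10 genes of the interferon gamma pathway were tested. In MHCIIhi 2 were lower, Jak2 (-1.34, adjusted p = 0.00321) and Ifngr2 (-1.05, adjusted p = 0.0102), and 0 higher. In kidney 6 were lower and 1 higher than in MHCIIhi (median -1.99), and 8 lower and 0 higher than in MHCIIlo (median -2.74). Irf8, a transcription factor, differed by -6.44 and -6.53 (adjusted p = 1.97e-07 and 1.65e-07). Of 6 lymphotoxin and TNF receptor genes 0 were called between the intestinal groups, while in kidney 1 was higher and 2 lower than in MHCIIhi, and 1 higher and 3 lower than in MHCIIlo.

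Markers of other cells than the sorted ones also differed between the groups. Summed signal is given with the 75th percentile of the array as 1. The 12 T cell markers on the array summed to 2.63 to 4.30 in kidney, 2.01 to 3.57 in MHCIIhi and 5.64 to 10.6 in MHCIIlo. Of the 10 tested, 7 were lower in MHCIIhi than in MHCIIlo and 0 higher, the direction of the 6 chemokine genes and 4 receptors called lower there. In kidney 2 were higher and 6 lower than in MHCIIhi, 1 was higher and 8 were lower than in MHCIIlo, and Cd3d, Cd3g and Gzma were measured on no kidney array. The 8 B and plasma cell markers summed to 0.406 to 0.587 in kidney, 1.1 to 2.18 in MHCIIhi and 21.8 to 36.4 in MHCIIlo. Of the 7 tested, 6 were called lower in kidney than in MHCIIhi and 6 than in MHCIIlo, not all the same genes. In MHCIIhi 3 were lower than in MHCIIlo, and 0 were higher in any of these comparisons. The 10 fibroblast and smooth muscle markers summed to 12.4 to 20.2 in kidney, 27.7 to 33.1 in MHCIIhi and 48.8 to 67.4 in MHCIIlo, where MHCIIlo 3 was highest. Among MHCIIlo arrays, MHCIIlo 3 was also highest for Ccl2, Ccl7, Ccl25, Ccl27, Cx3cl1, Cxcl1, Cxcl10, Cxcl11 and Cxcl16. Without Acta2, a contractile actin with mean levels of 3.62 in kidney, 4.92 in MHCIIhi and 5.62 in MHCIIlo, the other 9 summed to 3.56 to 5.91 in kidney, 0.533 to 0.871 in MHCIIhi and 1.97 to 18.6 in MHCIIlo, a choice made after its values were seen. Of the 8 tested, 4 were lower in MHCIIhi than in MHCIIlo and 0 higher, and Col1a1 and Col3a1 were measured on no MHCIIhi array. In kidney 4 were higher and 1 lower than in MHCIIhi, and 1 higher and 1 lower than in MHCIIlo. The part of these cells in the chemokine results was not tested.

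**Figure D4:**
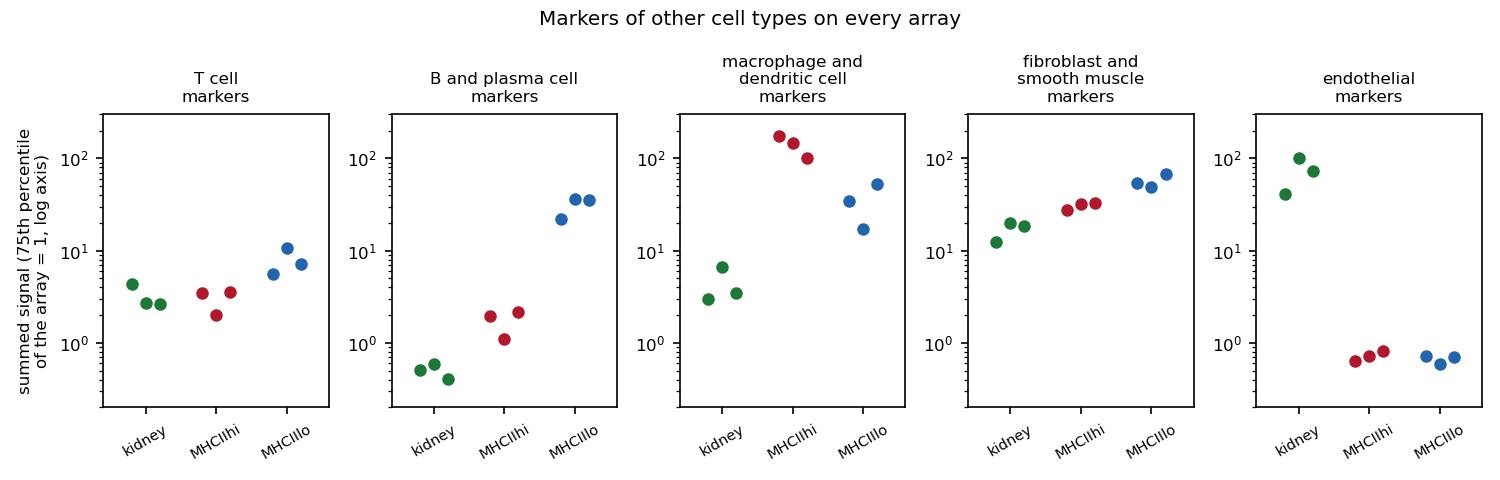
Summed signal of 5 lists of cell type markers on each array (log vertical axis, the array's 75th percentile is 1), for 3 kidney, 3 MHCIIhi and 3 MHCIIlo arrays, 1 point an array. Endothelial markers sum to 41.4 to 99.9 on kidney arrays and to less than 1 on every intestinal array, and B and plasma cell markers are highest in MHCIIlo.

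Of 10 macrophage and dendritic cell markers tested, 2 were higher in MHCIIhi than in MHCIIlo, as Ccl6 and Ccl9 were, and 3 were lower. The sum over the 13 on the array was 3.03 to 6.59 in kidney, 101 to 176 in MHCIIhi and 17.1 to 52.6 in MHCIIlo. Lyz2, a lysozyme whose intestinal paralogue Lyz1 is a Paneth cell product, had a mean level of 0.12 in kidney, 7.07 in MHCIIhi and 4.70 in MHCIIlo. Without Lyz2, a choice made after its values were seen, the remaining 12 markers summed to 2.59 to 3.00 in kidney, 3.30 to 3.95 in MHCIIhi and 3.78 to 6.04 in MHCIIlo. Lyz2 (2.37, adjusted p = 0.0293) and Cd14 (1.59, adjusted p = 0.00132) were higher in MHCIIhi than in MHCIIlo. C1qb (-2.17, adjusted p = 0.00331) and Csf1r (-1.57, adjusted p = 0.00198) were lower in MHCIIhi, and Adgre1 was measured on no MHCIIhi array. In kidney 7 were called lower than in MHCIIhi and 7 than in MHCIIlo, and these were not all the same genes. Csf1r was the 1 called higher, by 5.41 against MHCIIhi and 3.84 against MHCIIlo. Of 7 neutrophil markers on the array 1 was tested, Mpo, which was lower in kidney than in MHCIIlo (-1.23) and otherwise not called. S100a8, Ngp, Camp and Csf3r were measured on no array. The part of myeloid cells in the results for Ccl6 and Ccl9 was not tested.

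Of 9 endothelial markers, 8 were higher and 1 lower in kidney than in each intestinal group. Cxcl12, Ccl2, Ccl3, Ccl27, Cxcl10, Cxcl4, Cxcr4, Ackr3 and Ccrl2 were called higher there too. Their sum was 41.4 to 99.9 in kidney, 0.645 to 0.811 in MHCIIhi and 0.590 to 0.723 in MHCIIlo. Cdh5, Kdr, Tek and Emcn were measured on every kidney array and on no intestinal array, and Lyve1, a marker of lymphatic endothelium, on no kidney array. Between the intestinal groups 1 was called higher in MHCIIhi and 2 lower, and no intestinal array measured these 2. The part of endothelial cells in the kidney results was not tested. Of 6 epithelial markers, 0 were called between the intestinal groups, and 5 were lower and 0 higher in kidney than in either. Of 8 intestinal epithelial markers, all were lower in kidney, while 2 were higher and 4 lower in MHCIIhi than in MHCIIlo. Olfm4 (5.13) and Lyz1 (2.40), of the crypt base, were higher, and Sis (-1.99) and Alpi (-1.72), of the brush border, were lower. Of 9 kidney tubule markers, all were higher in kidney than in MHCIIhi and 8 than in MHCIIlo, while 1 was called higher and 3 lower in MHCIIhi than in MHCIIlo. Of those 3, Umod was measured on no intestinal array and Lrp2 on 1 MHCIIlo array alone.

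By position, 12 of the 34 genes lay on chromosome 11, 10 on chromosome 5, 4 on chromosome 8, 3 on chromosome 4, 2 on chromosome 1 and 1 each on chromosomes 6 and 13, while 1 (Ccl28) was on an unplaced sequence of mm8. On chromosome 11, Ccl5, Ccl9, Ccl6, Ccl3 and Ccl4 follow each other with gaps of 13.7 to 59.3 kb between probes, and in kidney against MHCIIhi the first 3 were called lower and the other two higher. On chromosome 8, the probes of Cx3cl1 and Ccl17 were 29.5 kb apart, and Cx3cl1 was measured on all 9 arrays and Ccl17 on 5.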

How the data were processed

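RNA of 9 sorted cell samples was measured on 1-colour Agilent mouse arrays, 1 array a sample, in 3 groups of 3 that the labels give as independent replicates. The deposited intensity values, per the file headers, came from Agilent Feature Extraction 10.5.1.1 and were background-corrected (processed signal), and the authors' own value table held the same intensity values divided by each array's median. The labels do not say whether pools of different groups shared animals, and no pairing was used. The p-values measure the spread between arrays of a group, and the MHCIIhi arrays lay on slides 1 and 2.

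From the processed signal, log2 values were set against the 75th percentile of the array, control spots left out, and spots of 1 probe were averaged. A gene was tested where its probe, the brightest of its probes on average, was measured on each of the 3 arrays of some group. limma 3.58.1 (R 4.3.3, data.table package, version 1.17.8) fitted all 9 arrays with the group as factor, and p-values were adjusted by Benjamini-Hochberg over 19474 genes. The procedure was tested on simulated data. The percentage of probes well above background was 70.8 to 72.9 on kidney, 60.8 to 64.6 on MHCIIhi and 50.7 to 57.1 on MHCIIlo arrays, and 0 spots were saturated. The number of arrays, 3 a group, limits the precision. By accession, 24375 of 41174 probes matched RefSeq, and 16799 kept the file's name, which can be old. Probe coordinates are mm8, as the files give them. Promoter windows and figures used Python 3.11.15, pandas 2.3.3 and matplotlib 3.10.9.

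All members were named. Genes outside the rule were named only from lists of receptors, enzymes, pathways and cell type markers, at most 4 called genes a list and comparison by size of difference, besides markers that some group did not measure. Members and lists were chosen with earlier results of these data known. Alternatives were quantile normalization, median scaling, normexp, other filters on dim probes, the mean over a gene's probes, the authors' table, a trend and robust prior, only the groups compared, slide or replicate number as a block, and each array left out in turn.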

Additional observations from a re-analysis of the deposited data

How the results depend on the processing

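Of 42 called differences among the chemokine genes, 27 were called under every alternative run, 15 missed the call under at least 1 alternative, and 3 of these also changed sign. Differences that were not called and involve a group that measured the gene on no array are left out. With normexp, 4 genes were called higher in kidney than in MHCIIhi and 3 than in MHCIIlo (of all genes 14.7% and 15.4%). With no filter on dim probes (34 genes tested), 17 were lower in kidney than in MHCIIhi and 20 than in MHCIIlo (of all genes 29.8% and 41.3%). With only probes measured on all 9 arrays (12 genes tested), 3 were higher and 6 lower in kidney than in MHCIIhi (of all genes 14.6% and 26.1%), and 2 higher and 7 lower than in MHCIIlo (19.1% and 33.0%). With slide as a fixed block, limma called 0 higher and 1 lower in MHCIIhi than in MHCIIlo (of all genes 7.07% and 1.56%). Leaving out 1 array gave 1 to 2 called higher in MHCIIhi, and 1 without MHCIIhi 1, MHCIIlo 2 or MHCIIlo 3. The replicate block left the counts at 2 higher and 6 lower for MHCIIhi against MHCIIlo, 7 and 10 for kidney against MHCIIhi, and 6 and 11 for kidney against MHCIIlo, and changed no other call. Deviations of same-numbered arrays correlated between -0.35 and 0.28, so the numbers were not taken to pair the samples.

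Signs turned as follows, and the cause was not tested. For MHCIIhi minus MHCIIlo, normexp gave -0.28 for Ccl20, -0.28 for Cxcl1 and -0.48 for Cxcl9. Slide as a random block (correlation within slide 0.24) gave -0.083 for Cxcl1. Slide as a fixed block gave 0.79 for Ccl17, -0.82 for Cxcl1 and -0.099 for Cxcl9. For kidney minus MHCIIhi, quantile normalization gave -0.013 for Ccl17 and 0.050 for Cxcl16, and median scaling 0.19 for Cxcl16. Normexp gave -0.68 for Ccl17, -0.30 for Ccl21c, 0.053 for Cxcl16 and -0.17 for Cxcl4. For kidney minus MHCIIlo, quantile normalization gave 0.14 for Ccl7, median scaling 0.0081 for Ccl17 and 0.054 for Ccl7, and slide as a random block 0.12 for Ccl17 and 0.23 for Ccl7. Normexp gave -0.32 for Ccl3, -0.43 for Ccl4 and -0.89 for Cxcl4. The value for Cxcl4 is not a size, since no MHCIIlo array measured it.

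Leaving out 1 array moved MHCIIhi minus MHCIIlo between -0.33 and 0.66 for Ccl20, -0.54 and 1.05 for Cxcl1, and -0.34 and 0.71 for Cxcl9. It moved kidney minus MHCIIhi between -0.048 and 1.08 for Ccl17 and -0.17 and 0.28 for Cxcl16. Kidney minus MHCIIlo moved between -0.53 and 0.068 for Ccl17, -0.88 and 1.17 for Ccl7, and -0.092 and 0.72 for Ccl4. The ends at 1.08 and 0.068 for Ccl17 and at 1.17 for Ccl7 are not sizes. Each left out the only array of its intestinal group that measured the gene, so they rest on unmeasured levels. The median of all genes moved with the scaling, between -0.49 with normexp and -0.06 with quantile normalization for MHCIIhi minus MHCIIlo, between -0.33 with normexp and 0.19 with median scaling for kidney minus MHCIIhi, and between -0.57 with normexp and 0.26 with median scaling for kidney minus MHCIIlo. The level below which a probe was not measured was highest on MHCIIlo arrays, which limits what can be said of dim genes there.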

Other observations

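Chemokines that the array lists under other names were not members. Cxcl17, an epithelial chemokine listed as BC024561, was measured on all 3 kidney arrays, with levels of -4.82, -4.78 and -5.72, and on no intestinal array. Ppbp, a platelet chemokine, was also measured on all 3 kidney arrays, with levels of -5.54, -3.92 and -5.56, and on no intestinal array. Kidney 2 was its highest array, as it was for Cxcl4. Cxcl3, listed as Gm1960, was measured on no array.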
